A study of Mus musculus with 6 samples.

Results

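In 5 pairs of near-identical genes, a parent gene had lower counts and its copy elsewhere in the genome had higher counts in the hippocampus of DBA/2 mice than in that of C57BL/6 mice. The pairs were Atp6v0c with Gm15487, Cox7a2l with Gm6969, Acaca with AC135641.1, Amd1 with Amd2, and Actr3 with Gm8822. These 10 genes, of 51912 in the count table, were chosen by their log2 fold changes in this strain contrast, in which parent and copy moved in opposite directions, and taken from the table by name. Their differences between the strains are therefore a description and carry no test.

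The study measured RNA by sequencing in hippocampus of 2 inbred mouse strains, DBA/2 and C57BL/6, with 3 libraries per strain. The labels give no treatment, age, sex or substrain for either strain. Nor do they state that each library is a separate animal, and the p-values below therefore reflect library-to-library spread, part of which may be technical.

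The parents are spliced, widely expressed genes. Atp6v0c encodes the membrane ring subunit through which the vacuolar ATPase moves protons into lysosomes and synaptic vesicles, and Cox7a2l encodes a mitochondrial protein that helps join respiratory complexes III and IV. Acaca encodes acetyl-CoA carboxylase, the committed step of fatty acid synthesis. Amd1 encodes S-adenosylmethionine decarboxylase, which supplies the aminopropyl groups of spermidine and spermine, and Actr3 encodes a core subunit of the Arp2/3 complex, which nucleates branched actin filaments. Their copies are of the kind made when a spliced messenger RNA is reverse transcribed and inserted into the genome: such a copy lacks introns, and a short sequencing read from a stretch it shares with the parent has 2 places to align.

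All 5 copies had 1 exon in the GENCODE M21 annotation of the GRCm38 build, whereas the aligned part of each parent transcript crossed between 2 and 46 exon junctions. Gm15487 (named Atp6v0c-ps2 in GENCODE), Gm6969, AC135641.1 (named Gm5182 in GENCODE) and Gm8822 are annotated as processed pseudogenes, and Amd2 as a protein-coding gene. No annotated gene overlapped any of the 5 copies. Amd2 lies 4.58 Mb from Amd1 on chromosome 10, and the other copies lie on other chromosomes than their parents.

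The stretches below are shown because they hold bases by which, in the reference genome, a read could be given to the parent or to the copy. Whether the same bases tell parent from copy in each of the strains was not tested, since a count table holds no bases. Each parent stretch is coding sequence of a GENCODE M21 transcript in GRCm38, and each copy stretch is the part of the copy aligned to it. Both are given 5′ to 3′, with the bases that differ between parent and copy in capitals. The Atp6v0c stretch is spliced from exons within chr17:24164807-24169219 on the minus strand, and the Gm15487 stretch lies at chr6:37806151-37806240 on the plus strand.
Atp6v0c: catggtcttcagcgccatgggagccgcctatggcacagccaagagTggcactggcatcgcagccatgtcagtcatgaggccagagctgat
Gm15487: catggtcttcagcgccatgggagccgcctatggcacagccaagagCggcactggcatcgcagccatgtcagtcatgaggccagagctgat
The capital marks T111C, the sole base that differed over all 465 aligned bases (99.8% identity), with the parent's base first, the position counted from 1 at the copy's 5′ end, and the copy's base last. The change is synonymous, and the copy keeps the reading frame with no stop codon inside it.

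The Cox7a2l stretch is spliced from exons within chr17:83502606-83504117 on the minus strand, and the Gm6969 stretch lies at chr12:24638672-24638827 on the minus strand. It is shown because the copy carries bases that the parent of the reference strain lacks.
Cox7a2l: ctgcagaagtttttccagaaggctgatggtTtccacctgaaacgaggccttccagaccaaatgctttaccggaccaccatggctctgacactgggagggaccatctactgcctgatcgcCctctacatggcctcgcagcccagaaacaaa
Gm6969: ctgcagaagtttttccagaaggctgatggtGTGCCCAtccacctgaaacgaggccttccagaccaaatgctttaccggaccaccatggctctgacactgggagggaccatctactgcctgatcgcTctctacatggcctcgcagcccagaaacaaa
Gm6969 holds 6 bases after its base 213 that the Cox7a2l transcript does not have, together with T220A and C309T, over 336 aligned bases (99.4% identity). C57BL/6, the strain of the reference genome, is known to carry a Cox7a2l allele that encodes a shorter protein than the allele of many other inbred strains. Which allele the DBA/2 libraries carry was not tested, since a count table holds no bases.

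The stretches of the other 3 pairs each surround coding differences. The Acaca stretch is spliced from exons within chr11:84311475-84312808 on the plus strand, and its copy lies at chr12:10155493-10155582 on the plus strand. The Amd1 stretch lies at chr10:40290142-40290231 and the Amd2 stretch at chr10:35710720-35710809, both on the minus strand. The Actr3 stretch is spliced from exons within chr1:125397174-125397482 on the minus strand, and the Gm8822 stretch lies at chrX:81821720-81821809 on the minus strand.
Acaca: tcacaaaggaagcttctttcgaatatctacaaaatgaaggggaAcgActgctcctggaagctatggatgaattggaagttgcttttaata
AC135641.1: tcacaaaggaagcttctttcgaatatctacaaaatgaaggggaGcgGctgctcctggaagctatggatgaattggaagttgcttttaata
Amd1: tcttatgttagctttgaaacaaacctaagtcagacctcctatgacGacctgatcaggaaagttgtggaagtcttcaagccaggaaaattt
Amd2: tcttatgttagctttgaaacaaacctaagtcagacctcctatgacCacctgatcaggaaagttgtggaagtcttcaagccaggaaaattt
Actr3: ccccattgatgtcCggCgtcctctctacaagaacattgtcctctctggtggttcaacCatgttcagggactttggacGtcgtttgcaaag
Gm8822: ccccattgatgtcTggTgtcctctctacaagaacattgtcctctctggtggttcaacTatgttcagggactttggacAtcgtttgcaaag
AC135641.1 differed from Acaca at 20 of 6089 aligned bases (99.7% identity), of which 18 are synonymous. It also lacks 24 bases that have the length and place of exon 30 of the 56 exons of the Acaca transcript. Amd2 differed from Amd1 at 10 of 3198 aligned bases (99.7% identity), and G1129C is the sole coding difference. Gm8822 differed from Actr3 at 26 of 2345 aligned bases (98.9% identity), with 14 of them in the coding part. Of those, 11 are amino acid changing when each substitution is set singly into the parent's codon. The substitutions of AC135641.1 were classed in the same way. Read in the parent's frame with no correction for added or missing bases, AC135641.1 held 30 stop codons and Gm8822 held 8, while Gm15487, Gm6969 and Amd2 held none. Gm8822 has 1 added base after its base 878, which shifts the frame from there on. AC135641.1 has 1 added base after its base 2730 and lacks 4 bases after its base 3767.

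**Figure D1:**
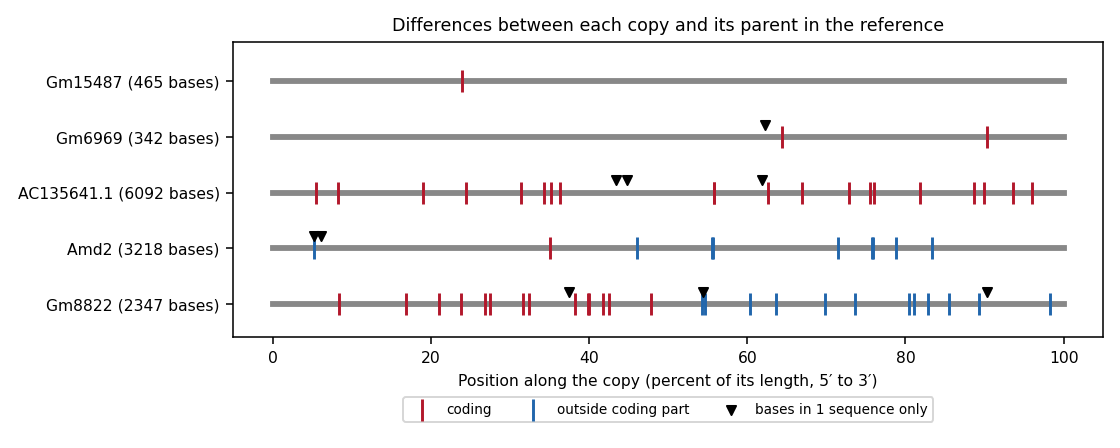
Positions at which each copy differs from its parent in the reference, as percent of the copy's length from its 5′ end (x axis), with the copies down the y axis. Vertical marks are substitutions, in the coding part or outside it, and triangles are places where 1 of the sequences has bases the other lacks; Gm15487 carries 1 substitution and Gm8822 carries 26.

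The plot of differences along the copies shows where a read with the bases of the reference could be told apart. Of the 100-base windows of a copy, the share found without a difference in a transcript of its parent was 72.7% for Gm15487, 46.9% for Gm6969, 67.9% for AC135641.1, 72.9% for Amd2 and 22.9% for Gm8822. In the other direction, 24.5% of the 100-base windows of the Atp6v0c transcript, 11.7% of Cox7a2l, 42.8% of Acaca, 73.2% of Amd1 and 20.8% of Actr3 occurred in the copy. The copies of Atp6v0c and Cox7a2l, as annotated in GENCODE, cover 39.3% and 31.2% of the parent transcript, mainly its coding part, those of Acaca, Amd1 and Actr3 64.0%, 99.8% and 91.4%. GENCODE gives Gm15487 465 bases and Gm6969 342 bases, while the RefSeq annotation lists them at 1133 and 1072 bases. The window shares and the coverage use the GENCODE extents, and the longer extents were not aligned, so more of these 2 parents may be shared. The labels state neither the read length nor how reads with 2 places were treated, so windows of 100 bases are a choice, and reads may be split between parent and copy in ways the counts do not show.

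Total counts were between 13839366 and 16912153 in the DBA/2 libraries and between 13867280 and 20185683 in the C57BL/6 libraries. The Xist RNA, made from the inactive X chromosome of females, had 12, 10 and 2 counts in the DBA/2 libraries and 3214, 1 and 6995 counts in the C57BL/6 libraries, while the Y-linked Ddx3y had 1323, 1207 and 837 counts in DBA/2 and 1048, 996 and 1006 counts in C57BL/6. C57BL/6 replicates 1 and 3 thus held both RNAs and stood apart from the other libraries, and log2 fold changes without them are given where they moved by more than the spread between replicates. Summed levels of 6 marker genes each, in CPM (counts relative to the library size), were 4326 to 5820 in DBA/2 and 6405 to 8001 in C57BL/6 for oligodendrocytes, 260 to 287 in DBA/2 and 306 to 337 in C57BL/6 for microglia, and 191 to 245 in DBA/2 and 364 to 509 in C57BL/6 for thalamus and habenula. For neurons they were 5170 to 5413 in DBA/2 and 5068 to 5420 in C57BL/6, and for hippocampal neurons 1356 to 1395 in DBA/2 and 1228 to 1236 in C57BL/6. For astrocytes they were 4356 to 4938 in DBA/2 and 4077 to 4288 in C57BL/6, and for choroid plexus 1225 to 2694 in DBA/2 and 660 to 1489 in C57BL/6. The astrocyte sum was higher in DBA/2 although 3 of its markers were called lower and 1 higher, with a median log2 fold change of -0.12. The counts of markers called in each direction are given with the processing. No marker was at 0 in all libraries. Their part in the differences below was not tested, and in bulk tissue fewer cells of a type cannot be told apart from less RNA per cell.

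Atp6v0c had the lowest log2 fold change of the 5 parents, and its copy Gm15487 was higher by nearly as much in CPM. Gm15487 had 2860, 2647 and 2496 counts in the DBA/2 libraries, against 57, 34 and 66 counts in the C57BL/6 libraries. Atp6v0c had 470, 406 and 353 counts in DBA/2, against 3340, 2967 and 3987 counts in C57BL/6. The copy had at least 2496 counts in every DBA/2 library and at most 66 in every C57BL/6 library, and the parent had the opposite order, with no overlap between the strains for either gene. In CPM, Gm15487 averaged 168 ± 11.97 in DBA/2 and 3.07 ± 0.515 in C57BL/6, and Atp6v0c averaged 25.6 ± 1.85 in DBA/2 and 205 ± 9.48 in C57BL/6 (SD, n = 3 each). The log2 fold change, DBA/2 over C57BL/6, was 5.75 ± 0.09 for Gm15487 and -3.00 ± 0.06 for Atp6v0c (standard error of the edgeR fit), so the parent was at 12.5% of its C57BL/6 level. Without C57BL/6 replicates 1 and 3 the value for Gm15487 was 6.08.

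The summed counts of Atp6v0c and Gm15487 were 3330, 3053 and 2849 in DBA/2, against 3397, 3001 and 4053 in C57BL/6. As a level, the sum averaged 194 ± 12.8 CPM in DBA/2 and 208 ± 8.98 CPM in C57BL/6, a log2 fold change of -0.11 ± 0.05, and the libraries of the strains overlapped. This value was -0.056 when DBA/2 replicate 2 was left out and -0.15 when DBA/2 replicate 3 was. Leaving out C57BL/6 replicate 2 gave -0.070, and leaving out C57BL/6 replicates 1 and 3 together gave -0.18. The copy was higher in DBA/2 by 164.8 CPM, which is 91.7% of the 179.8 CPM by which the parent was lower. Gm15487 took 86.7% ± 0.862 of the pair's counts in DBA/2 and 1.48% ± 0.301 in C57BL/6. Another similar gene, the pseudogene Atp6v0c-ps1 on chromosome 7, was listed at 0 counts in all 6 libraries.

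Cox7a2l and Gm6969 followed the same order with an almost empty copy in C57BL/6. Gm6969 had 979, 974 and 789 counts in the DBA/2 libraries, against 3, 2 and 7 counts in the C57BL/6 libraries. Cox7a2l had 417, 403 and 355 counts in DBA/2, against 1659, 1338 and 1827 counts in C57BL/6. Neither gene's libraries overlapped between the strains, and the C57BL/6 counts of the copy lie around the 3 counts that a count of 0 allows. Gm6969 averaged 57.2 ± 0.337 CPM in DBA/2 and 0.225 ± 0.109 CPM in C57BL/6, a log2 fold change of 7.86 ± 0.15 that was 8.37 without C57BL/6 replicate 3 and 8.54 without C57BL/6 replicates 1 and 3. Cox7a2l averaged 24.6 ± 0.927 CPM in DBA/2 and 96.2 ± 4.52 CPM in C57BL/6, a log2 fold change of -1.97 ± 0.06.

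The pair sum of Cox7a2l and Gm6969 was 1396, 1377 and 1144 counts in DBA/2, against 1662, 1340 and 1834 counts in C57BL/6. The sum averaged 81.8 ± 0.674 CPM in DBA/2 and 96.4 ± 4.42 CPM in C57BL/6, a log2 fold change of -0.24 ± 0.05, with every DBA/2 library below every C57BL/6 library on the CPM scale. The copy's gain was 79.6% of the 71.6 CPM by which Cox7a2l was lower. Gm6969 took 69.9% ± 0.897 of the pair's counts in DBA/2 and 0.237% ± 0.126 in C57BL/6, where it was 0.149% in replicate 2.

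**Figure D2:**
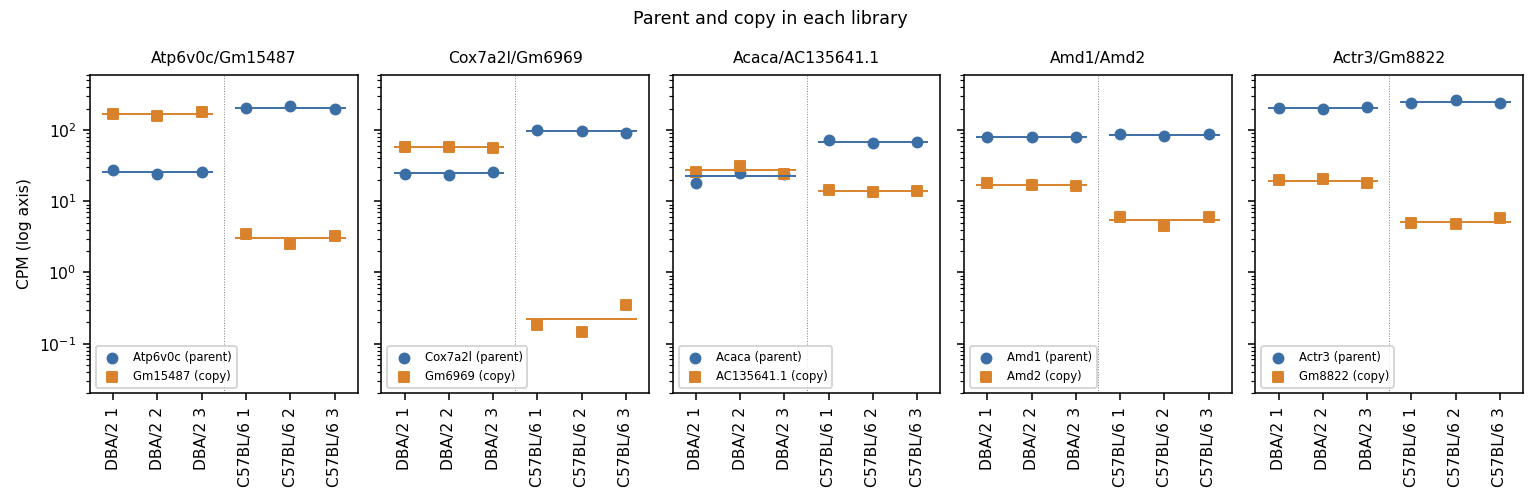
Level of each parent (circles) and copy (squares) in every library, in CPM on a log axis (y axis), with the 3 DBA/2 libraries left of the 3 C57BL/6 libraries and lines at the strain means. Copies lie higher and parents lower in DBA/2 in all 5 pairs, and Gm6969 lies below 1 CPM in all 3 C57BL/6 libraries.

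The plot of levels by library sets the 5 pairs side by side. All 5 copies were higher and all 5 parents lower in every DBA/2 library than in every C57BL/6 library on the CPM scale. This count was fixed by how the genes were chosen. Of all 17517 genes tested, 36.8% had strains whose libraries did not overlap, with 16.7% higher in DBA/2 and 20.1% lower.

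In the pair of Acaca and AC135641.1 the copy was counted in both strains, and it was higher in DBA/2 by less than the parent was lower. AC135641.1 had 443, 537 and 335 counts in the DBA/2 libraries, against 243, 186 and 284 counts in the C57BL/6 libraries. Acaca had 304, 426 and 333 counts in DBA/2, against 1209, 910 and 1346 counts in C57BL/6. In each of the DBA/2 libraries the copy had more counts than the parent, while in each of the C57BL/6 libraries it had fewer. AC135641.1 averaged 27.3 ± 3.90 CPM in DBA/2 and 14.1 ± 0.536 CPM in C57BL/6, a log2 fold change of 0.95 ± 0.10. Acaca averaged 22.3 ± 3.90 CPM in DBA/2 and 68.7 ± 3.51 CPM in C57BL/6, a log2 fold change of -1.63 ± 0.10. On the GENCODE annotation Acaca also overlaps Gm11437 on the opposite strand and Gm37391 on its own strand, so reads there could be split among these genes.

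The pair sum of Acaca and AC135641.1 was 747, 963 and 668 counts in DBA/2, against 1452, 1096 and 1630 counts in C57BL/6. It averaged 49.6 ± 6.55 CPM in DBA/2 and 82.9 ± 3.99 CPM in C57BL/6, a log2 fold change of -0.74 ± 0.08, the lowest of the 5 pair sums. The gain of 13.1 CPM in the copy was 28.3% of the 46.4 CPM by which Acaca was lower. AC135641.1 took 55.1% ± 4.62 of the pair's counts in DBA/2 and 17.0% ± 0.350 in C57BL/6.

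Amd1 had the smallest difference of the 5 parents. Amd2 had 307, 287 and 228 counts in the DBA/2 libraries, against 99, 62 and 122 counts in the C57BL/6 libraries. Amd1 had 1357, 1348 and 1092 counts in DBA/2, against 1458, 1142 and 1763 counts in C57BL/6. Scaled to library size, Amd2 averaged 17.1 ± 0.821 CPM in DBA/2 and 5.52 ± 0.870 CPM in C57BL/6, and Amd1 averaged 79.2 ± 0.514 CPM in DBA/2 and 86.3 ± 2.66 CPM in C57BL/6. The log2 fold change was 1.62 ± 0.12 for Amd2 and -0.12 ± 0.05 for Amd1 (1.92 and -0.068 without C57BL/6 replicates 1 and 3). The highest DBA/2 level of Amd1, 79.7 CPM, stood just under the lowest C57BL/6 level, 83.2 CPM.

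The pair sum of Amd1 and Amd2 was 1664, 1635 and 1320 counts in DBA/2, against 1557, 1204 and 1885 counts in C57BL/6. It was the sole pair sum that was higher in DBA/2, at 96.4 ± 1.299 CPM against 91.8 ± 3.53 CPM in C57BL/6, a log2 fold change of 0.07 ± 0.05. This value was 0.13 without C57BL/6 replicates 1 and 3 and 0.040 without C57BL/6 replicate 2. The gain of 11.6 CPM in Amd2 was larger than the 7.07 CPM by which Amd1 was lower, and Amd2 took 17.8% ± 0.615 of the pair's counts in DBA/2 and 5.99% ± 0.733 in C57BL/6. Other copies of Amd1 added little: the pseudogene Amd-ps3 summed to 156 counts in DBA/2 and 128 in C57BL/6 (log2 fold change 0.37, edgeR adjusted p = 0.259), Amd-ps4 to 20 counts in DBA/2 and 16 in C57BL/6, and Amd-ps1 to 4 counts in DBA/2 and 0 in C57BL/6.

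Actr3 and Gm8822 formed the pair with the most substitutions between the sequences. Gm8822 had 341, 346 and 252 counts in the DBA/2 libraries, against 81, 65 and 116 counts in the C57BL/6 libraries. Actr3 had 3496, 3323 and 2883 counts in DBA/2, against 3985, 3673 and 4817 counts in C57BL/6. The copy was 3.77-fold higher in DBA/2 in the fit, while most of the pair's counts stayed with the parent in both strains. Gm8822 averaged 19.5 ± 1.19 CPM in DBA/2 and 5.13 ± 0.570 CPM in C57BL/6, a log2 fold change of 1.92 ± 0.12, and Actr3 averaged 203 ± 6.35 CPM in DBA/2 and 249 ± 15.97 CPM in C57BL/6, a log2 fold change of -0.30 ± 0.05. Gm8822 lies on the X chromosome, and its log2 fold change was 2.05 without the C57BL/6 libraries that held Xist, while that of Actr3 was -0.40.

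The pair sum of Actr3 and Gm8822 was 3837, 3669 and 3135 counts in DBA/2, against 4066, 3738 and 4933 counts in C57BL/6. It averaged 222 ± 5.49 CPM in DBA/2 and 254 ± 15.6 CPM in C57BL/6, a log2 fold change of -0.19 ± 0.05, or -0.29 without C57BL/6 replicates 1 and 3. The gain of 14.4 CPM in Gm8822 was 30.99% of the 46.4 CPM by which Actr3 was lower. Gm8822 took 8.79% ± 0.702 of the pair's counts in DBA/2 and 2.03% ± 0.308 in C57BL/6. A shorter copy, Gm15899, summed to 46 counts in DBA/2 and 69 in C57BL/6 (log2 fold change -0.53, edgeR adjusted p = 0.287).

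**Figure D3:**
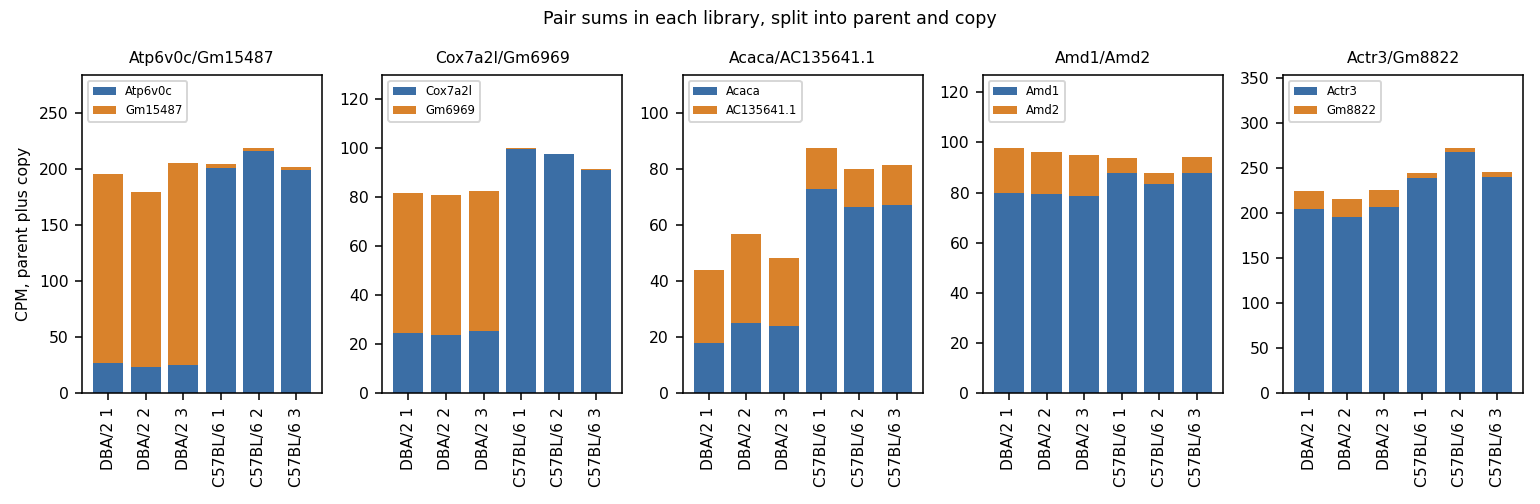
Sum of parent and copy in every library, in CPM (y axis, from 0, scaled to each pair), with the parent in blue and the copy in orange and the DBA/2 libraries left of the C57BL/6 libraries. The Atp6v0c/Gm15487 bars have nearly the same height in both strains, at 194 CPM in DBA/2 and 208 CPM in C57BL/6, and the Acaca/AC135641.1 bars differ most, at 49.6 CPM in DBA/2 and 82.9 CPM in C57BL/6.

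The plot of pair sums shows 2 patterns among the 5 pairs. In Atp6v0c/Gm15487 and Cox7a2l/Gm6969 the copy held most of the counts in DBA/2 and almost none in C57BL/6. In Amd1/Amd2 and Actr3/Gm8822 the parent held most in both strains, and Acaca/AC135641.1 lay between. Genes sharing at least 200 bases at 95% identity with the parent were sought by the longest transcript of each gene, so some may be missed. Adding those found left the log2 fold changes of the sums at -0.11, -0.24, -0.74, 0.08 and -0.20, in the order in which the pairs are described here.

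Parent and copy differ in length, so their levels were set against each other per length, as FPKM (fragments counted per kilobase of exon, scaled to the library's total). The listed exonic length is 465 bases for Gm15487 and 3384 for Atp6v0c, and 342 for Gm6969 and 1147 for Cox7a2l. Gm15487 averaged 363 FPKM in DBA/2 and 6.53 FPKM in C57BL/6, and Atp6v0c 7.63 FPKM in DBA/2 and 60.1 FPKM in C57BL/6. Gm6969 averaged 168 FPKM in DBA/2 and 0.650 FPKM in C57BL/6, and Cox7a2l 21.6 FPKM in DBA/2 and 83.0 FPKM in C57BL/6. Per length, both copies thus stood above their parents in DBA/2 and below them in C57BL/6. AC135641.1 averaged 4.50 FPKM in DBA/2 and 2.29 FPKM in C57BL/6, and Acaca 1.31 FPKM in DBA/2 and 3.99 FPKM in C57BL/6, so this pair also changed its order. Amd2, at 5.36 FPKM in DBA/2 and 1.70 FPKM in C57BL/6, stayed below Amd1, at 22.5 FPKM in DBA/2 and 24.1 FPKM in C57BL/6. Gm8822, at 8.37 FPKM in DBA/2 and 2.17 FPKM in C57BL/6, stayed below Actr3, at 44.1 FPKM in DBA/2 and 53.3 FPKM in C57BL/6.

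These per-length levels depend on how long a copy and its parent are taken to be. The listed exonic length was 3384 bases for Atp6v0c, 17074 for Acaca and 4631 for Actr3. The transcripts of these genes aligned here had 1183, 9513 and 2565 bases. For Cox7a2l and Amd1 the listed length was 1147 and 3542 bases, against 1076 and 3204. Over the transcript lengths the parents would stand higher per length, and the copies' shares would be lower. RefSeq, on GRCm38.p6, lists Gm15487 at 1133 bases and Gm6969 at 1072 bases, longer than the 465 and 342 bases over which the table counted them. For AC135641.1 it lists 8068 bases against 6092, for Gm8822 2538 against 2347, and for Amd2 3201 against 3218. The counted stretch of Gm15487 and of Gm6969 thus holds less than the whole of the RefSeq gene.

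The other genes of the parents' pathways mostly showed small differences. Over all 17517 genes, the edgeR quasi-likelihood F test (p-values adjusted by Benjamini-Hochberg) called 22.8% at an adjusted p under 0.05, 9.09% higher and 13.7% lower in DBA/2, and the median log2 fold change was 0.00. The lists had between 3 of 19 and 5 of 16 genes called, close to that background. Of 19 other V-ATPase genes tested, 2 rose and 1 fell (median log2 fold change 0.01). Atp6v0a1, a large membrane subunit abundant in neurons, rose to 574 ± 14.6 CPM in DBA/2, against 476 ± 6.07 CPM in C57BL/6 (log2 fold change 0.27, adjusted p = 4.51e-05). Atp6v0e2, a small membrane subunit, fell to 162 ± 8.91 CPM in DBA/2, against 275 ± 7.48 CPM in C57BL/6 (log2 fold change -0.77, adjusted p = 1.85e-11). Tcirg1, a membrane subunit best known from osteoclasts, was at 20.6 CPM in DBA/2 and 16.9 CPM in C57BL/6 (adjusted p = 0.0285), and this call was lost without DBA/2 replicate 2 or 3 or C57BL/6 replicate 1 or 2 (highest adjusted p = 0.117) and with DESeq2 (adjusted p = 0.0741).

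Of 16 other cytochrome c oxidase genes tested, 1 rose and 4 fell (median log2 fold change -0.07). Cox7c, a small structural subunit, fell to 11.6 ± 1.16 CPM in DBA/2, against 41.1 ± 2.196 CPM in C57BL/6 (log2 fold change -1.83, edgeR adjusted p = 9.54e-14). It has a similar gene of its own, Gm10012, with 20 counts in DBA/2 and 19 in C57BL/6, and the ratio of summed mean levels of Cox7c and Gm10012 was -1.79 on the log2 scale. Cox6a2, a subunit typical of muscle, had 1.84 CPM in DBA/2 and 3.17 CPM in C57BL/6 (adjusted p = 0.0294), and Higd1a, an assembly factor, had 42.4 CPM in DBA/2 and 48.8 CPM in C57BL/6 (adjusted p = 0.0272). Cox5a, a nuclear-encoded subunit, had 80.1 CPM in DBA/2 and 69.9 CPM in C57BL/6 (adjusted p = 0.0143). Each of these 3 calls was lost without some single library. That of Cox5a was lost without C57BL/6 replicate 3 (adjusted p = 0.113), that of Higd1a without DBA/2 replicate 1 or 3 or C57BL/6 replicate 2 (highest adjusted p = 0.170), and that of Cox6a2 without DBA/2 replicate 2 or 3 or C57BL/6 replicate 1 or 2 (highest adjusted p = 0.129). The DESeq2 adjusted p was 0.0837 for Cox6a2 and 0.0867 for Higd1a, and with library size alone edgeR's adjusted p for Higd1a was 0.0520.

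In the list for fatty acid synthesis, which also holds genes other than synthesis enzymes, 2 of 21 genes tested rose and 4 fell (median log2 fold change -0.06). The 2 that rose were Mlycd and the kinase subunit Prkab2 (log2 fold change 0.22, edgeR adjusted p = 0.00731), and neither is a synthesis enzyme. Mlycd, which encodes malonyl-CoA decarboxylase and breaks down the product of Acaca, rose to 68.8 ± 5.66 CPM in DBA/2, against 22.7 ± 1.54 CPM in C57BL/6 (log2 fold change 1.59, edgeR adjusted p = 5.06e-14). Thrsp, a lipogenic regulator, fell to 10.6 ± 1.36 CPM in DBA/2, against 26.7 ± 4.06 CPM in C57BL/6 (log2 fold change -1.33, adjusted p = 2.61e-08). Me1, the NADPH-forming malic enzyme, fell to 39.0 ± 0.797 CPM in DBA/2, against 69.3 ± 1.45 CPM in C57BL/6 (log2 fold change -0.83, adjusted p = 1.15e-10), and Scd1, a fatty acid desaturase, fell to 165 ± 9.45 CPM in DBA/2, against 219 ± 22.1 CPM in C57BL/6 (log2 fold change -0.41, adjusted p = 0.000178). Me1 also has a copy that went the other way, AC156572.1, with 67 counts in DBA/2 and 13 in C57BL/6 (log2 fold change 2.41, adjusted p = 6.68e-05). The summed mean levels of the 2 genes still differed by -0.78 on the log2 scale.

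In polyamine metabolism, 2 of 19 genes tested rose and 3 fell (median log2 fold change 0.01). Odc1, ornithine decarboxylase and the other regulated step of the pathway beside Amd1, fell to 31.4 ± 1.56 CPM in DBA/2, against 55.4 ± 3.84 CPM in C57BL/6 (log2 fold change -0.82, edgeR adjusted p = 2.19e-09). Its copy Gm7993 rose to 591 counts in DBA/2, against 43 in C57BL/6 (log2 fold change 3.83, adjusted p = 6.50e-13), and the ratio of the summed mean levels of Odc1 and Gm7993 was -0.37 on the log2 scale. Another of the 4 genes similar to Odc1, Gm17709, had 216 counts in DBA/2 and 200 in C57BL/6 (adjusted p = 0.553), and the other two had 10 to 16 counts per strain. Sat2, a gene of the spermine/spermidine acetyltransferase family, fell to 4.06 ± 0.103 CPM in DBA/2, against 10.1 ± 1.20 CPM in C57BL/6 (log2 fold change -1.30, adjusted p = 2.95e-07). Srm, spermidine synthase, had 27.3 CPM in DBA/2 and 31.8 CPM in C57BL/6 (adjusted p = 0.0362), a call lost without any of the libraries other than DBA/2 replicate 3 (highest adjusted p = 0.172), under DESeq2 (adjusted p = 0.114) and with library size alone (adjusted p = 0.0603). With the replicate block, 2 polyamine genes were called lower, against 3 in the main fit. Sms, spermine synthase, had 122 CPM in DBA/2 and 108 CPM in C57BL/6 (adjusted p = 0.0129), a call lost without DBA/2 replicate 1 (adjusted p = 0.0701), and its similar gene Gm14680 summed to 1021 counts in DBA/2 and 978 in C57BL/6 (adjusted p = 0.319).

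Of 21 other genes of the Arp2/3 complex and its regulators tested, 2 rose and 4 fell (median log2 fold change -0.02). Gmfb, a factor that takes actin branches apart, fell to 179 ± 7.91 CPM in DBA/2, against 242 ± 5.04 CPM in C57BL/6 (log2 fold change -0.43, edgeR adjusted p = 1.69e-07). Actr3b, the second Arp3 gene, fell to 70.4 ± 6.18 CPM in DBA/2, against 91.4 ± 4.37 CPM in C57BL/6 (log2 fold change -0.38, adjusted p = 8.71e-05). Wasf2, an activator of the complex, had 20.1 CPM in DBA/2 and 25.2 CPM in C57BL/6 (adjusted p = 0.0129), and Wipf3, a partner of the WASP proteins, had 527 CPM in DBA/2 and 451 CPM in C57BL/6 (adjusted p = 0.0205). The Wasf2 call was lost without DBA/2 replicate 3 or C57BL/6 replicate 1 (highest adjusted p = 0.0895), and that of Wipf3 without DBA/2 replicate 1 or C57BL/6 replicate 1 or 3 (highest adjusted p = 0.0719). Without C57BL/6 replicates 1 and 3 together, the calls of Tcirg1, Cox5a, Cox6a2, Higd1a, Srm, Sms, Wasf2 and Wipf3 were lost, with edgeR adjusted p between 0.0528 and 0.434.

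**Figure D4:**
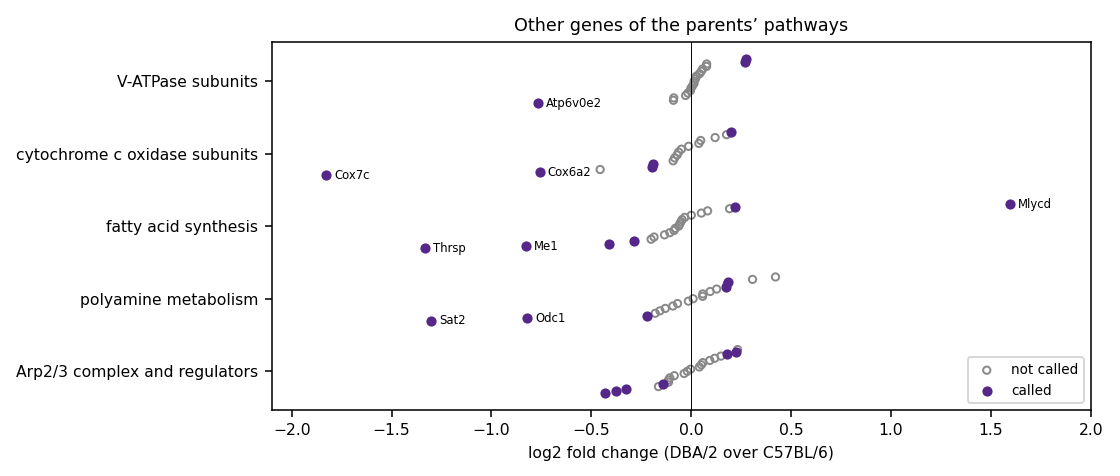
Log2 fold change, DBA/2 over C57BL/6 (x axis), of the tested genes of 5 pathway lists, without the 5 parents (y axis, 1 row of points per list). Filled points passed an adjusted p of 0.05 over all genes and open points did not; most points lie near 0, and Cox7c at -1.83 and Mlycd at 1.59 lie farthest out.

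The plot of pathway genes shows that most members of each list lay close to 0. The list medians, taken without the parents, differed from 0 by 0.07 or less on the log2 scale. Atp6v0c, Cox7a2l and Acaca were at 12.5% to 32.4% of their mean C57BL/6 level in DBA/2, in CPM. Summed with their copies, their log2 fold changes were -0.11, -0.24 and -0.74. These parents were chosen by their differences in this same contrast, so their distance from the medians was fixed by the choice.

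Opposite movement within pairs of similar genes also occurred elsewhere in the table. Across the series, 1193 pairs over 1235 tested genes shared at least 200 aligned bases at 95% identity and did not overlap in the genome. Their log2 fold changes differed by a median of 0.43, and by at least 1 in 319 pairs. In 4.11% of the pairs 1 gene was at least 1 higher and the other at least 1 lower in log2 fold change, and in 12.7% the genes went in opposite directions without overlap between the strains' libraries. The same gene can enter several pairs, so families with many similar genes weigh more in these shares and in the median. Ranked by the gap between the log2 fold changes, Cox7a2l/Gm6969 was number 2 with a gap of 9.83 and Atp6v0c/Gm15487 number 7 with 8.75. Acaca/AC135641.1, Actr3/Gm8822 and Amd1/Amd2 had gaps of 2.58, 2.21 and 1.74 and were numbers 133, 163 and 195. These ranked pairs were chosen by the same log2 fold changes, so their ranks are a description shaped by that choice. The gap of Cox7a2l/Gm6969 also rests on a copy with 12 counts over the C57BL/6 libraries.

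**Figure D5:**
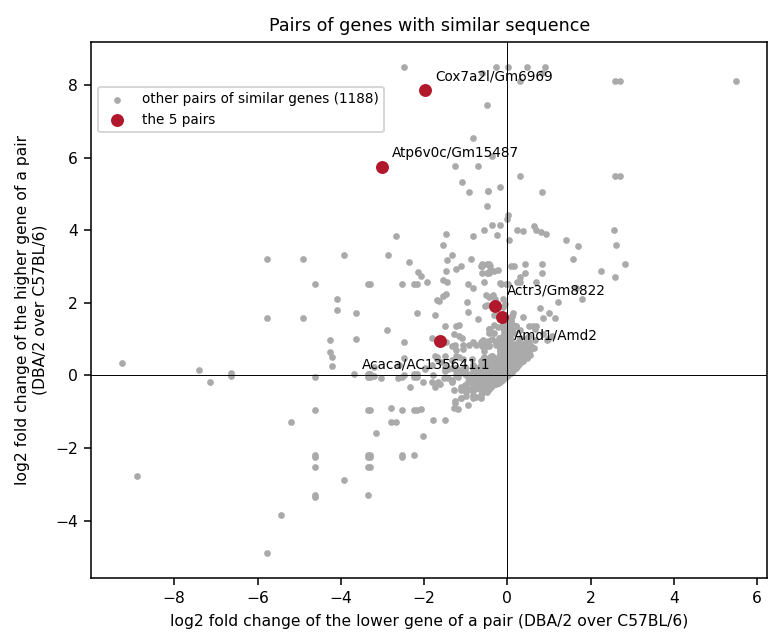
Log2 fold change (DBA/2 over C57BL/6) of the higher gene (y axis) against that of the lower gene (x axis) for 1193 pairs of similar genes, with the 5 pairs in red. Pairs moving oppositely lie to the upper left, where Cox7a2l/Gm6969 and Atp6v0c/Gm15487 lie at 7.86 and 5.75 on the y axis.

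The plot of similar pairs places the 5 pairs among the rest. Another 5 pairs with 1 gene at least 1 higher and the other at least 1 lower were taken by the largest gap. The log2 ratios of their sums ranged from -3.26 to 4.72. A choice by gap bears on how far sums differ, so these pairs are no measure for the 5 pairs described here. Gm13394 averaged 463 ± 29.0 CPM in DBA/2 and 1.27 ± 0.109 CPM in C57BL/6 and its partner Gm7336 2.91 ± 0.520 CPM in DBA/2 and 16.3 ± 0.256 CPM in C57BL/6, so the sum was higher in DBA/2 by 4.72 on the log2 scale. Rpsa-ps10 averaged 165 ± 12.9 CPM in DBA/2 and 16.7 ± 0.796 CPM in C57BL/6, and its sum with Rpsa-ps2 was higher by 3.14. Gm8210 averaged 3.39 ± 0.719 CPM in DBA/2 and 0.336 ± 0.184 CPM in C57BL/6 and was similar to both Gm10709 and Rpl29, a ribosomal protein gene. Its sum with Gm10709, which was at 0.039 ± 0.068 CPM in DBA/2 and 2.72 ± 0.651 CPM in C57BL/6, differed by 0.17. The sum of Gm8210 and Rpl29 differed by -3.26, since Rpl29 itself was at 1.58 ± 0.252 CPM in DBA/2 and 47.4 ± 5.21 CPM in C57BL/6. The sum of Gm10709 and Gm13841 was higher by 0.90. All of these genes but Rpl29 are annotated as processed pseudogenes, and several have more than 1 similar gene, so a sum over a pair need not hold all reads of the family.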

How the data were processed

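RNA from hippocampus was sequenced in 3 DBA/2 and 3 C57BL/6 libraries. The labels' protocols name TRIzol extraction of frozen hippocampus, the NEBNext Ultra RNA library kit, and multiplexed sequencing on an Illumina HiSeq. The submitters' processing notes list Trimmomatic 0.30, HISAT2 2.0.1, Cufflinks 2.2.1 and build GRCm38. How genes were counted, on which annotation and with or without strand is not given in the sources used here, nor is the handling of reads with several places. The deposited counts are whole numbers for each gene with no scaling by the authors, and the FPKM values the authors deposited beside them equalled the count per kilobase of listed exonic length and per total count within 0.005. Another 12 columns of per-sample values match no labelled sample and were not used. Of the gene IDs, 99.6% were in GENCODE M21, which gave coordinates (from 1), transcripts and gene types.

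The counts were fitted with edgeR 4.0.16 (R 4.3.3): TMM scaling, filterByExpr by strain, the robust quasi-likelihood F test, and Benjamini-Hochberg adjustment over 17517 genes, with calls at an adjusted p under 0.05. Fold changes are DBA/2 over C57BL/6. For a pair sum, the rows of parent and copy were replaced by their sum and the whole table was fitted again. CPM are counts scaled to a common TMM-adjusted library size. The scripts were tested on simulated data. Copies were aligned to parent transcripts with the local affine aligner of Biopython 1.88, and similar genes were found with BLAST 2.17.0 (megablast). Alignments shown are to the parent transcript of best score, a choice made after the data were seen; the longest transcript gave 387 aligned bases at 99.7% identity for Atp6v0c/Gm15487, and the same aligned bases and identity for the other pairs.

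The members and all gene lists were chosen with earlier results of these data known. Named genes are the members, genes similar to a parent, the 4 called genes with the largest absolute log2 fold change of each pathway list, and, among other similar pairs with 1 gene at least 1 higher and the other at least 1 lower in log2 fold change, the 5 with the widest gap; genes similar to the named pathway genes were added after the data were seen. Each marker list had 6 tested genes. None of the neuron or choroid plexus markers was called. Of hippocampal neuron markers 2 rose and 1 fell, of astrocyte markers 1 rose and 3 fell, of oligodendrocyte markers 0 rose and 1 fell, of microglia markers 0 rose and 4 fell, and of thalamus and habenula markers 0 rose and 4 fell. Over all 17517 genes tested, 9.09% were called higher and 13.7% lower in DBA/2. The alternatives were no filter on low counts, scaling by DESeq2 size factors or by library size, the Wald test of DESeq2 1.42.0, a replicate block, leaving out each library, and, added after the data were seen, leaving out C57BL/6 replicates 1 and 3 together.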

Additional observations from a re-analysis of the deposited data

How the results depend on the processing

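No log2 fold change of a member or pair sum changed sign under no filter on low counts, scaling by library size or DESeq2 size factors, the DESeq2 Wald test, the replicate block or leaving out any library, and all moved by less than the spread between replicates except those given here. Without 1 library at a time, Gm6969 ranged from 7.68 to 8.37. Without C57BL/6 replicates 1 and 3, chosen after the data were seen, the log2 fold change was 6.08 for Gm15487, 8.54 for Gm6969, -0.068 for Amd1, 1.92 for Amd2, -0.40 for Actr3 and 2.05 for Gm8822, and the pair sum was 0.13 for Amd1/Amd2 and -0.29 for Actr3/Gm8822; this leaves 1 C57BL/6 library, assumed to vary like the DBA/2 libraries. Per length, the copy's share in DBA/2 and C57BL/6 was 97.9% and 9.83% for Gm15487 and 88.6% and 0.790% for Gm6969. It was 77.4% and 36.5% for AC135641.1 and 15.96% and 3.92% for Gm8822, and in DBA/2 19.2% for Amd2. These shares divide by the listed exonic length, which is shorter for each copy than for its parent. Windows of 50 and 150 bases gave 88.0% and 64.9% of Gm15487 found in its parent, 69.3% and 33.2% of Gm6969, 83.0% and 53.6% of AC135641.1, 85.7% and 61.6% of Amd2, and 52.8% and 6.55% of Gm8822. Leaving out 1 library at a time gave 1 to 2 V-ATPase genes called higher, 0 to 1 cytochrome c oxidase genes higher and 1 to 4 lower, 0 to 1 polyamine genes higher, and 0 to 3 Arp2/3 genes higher and 2 to 3 lower. Without C57BL/6 replicates 1 and 3, 1 V-ATPase gene, 0 cytochrome c oxidase, 1 fatty acid synthesis, 0 polyamine and 0 Arp2/3 genes were called higher, and 2 cytochrome c oxidase and 2 Arp2/3 genes lower. DESeq2 called 1 V-ATPase gene and 1 polyamine gene higher and 2 cytochrome c oxidase genes lower, library size alone called 2 cytochrome c oxidase genes lower, and no filter called 1 polyamine gene higher. The cause of these changes was not tested. Of all tested genes, 4000 were called in the main comparison, 3252 by DESeq2, 3131 to 3717 without 1 library and 2012 without C57BL/6 replicates 1 and 3. The share of calls that were higher in DBA/2 was 39.8%, and 46.9% with library size alone. The replicate numbers of the titles did not pair the libraries (correlations of same-numbered libraries 0.132, -0.079 and 0.003), and a replicate block gave 3827 calls and 1 polyamine gene called higher. Depth limits Gm6969 most, with 12 counts over the 3 C57BL/6 libraries.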
